A study of Mus musculus domesticus and Mus musculus molossinus with 8 samples.

Results

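Transcript levels of 9 genes for carriers of organic anions and foreign compounds were described in livers and thymi of 4 mice aged 8 weeks. The 9 were taken by gene symbol, and all 9 were found among the 23284 genes of both deposited tables. They are 5 members of the Slco family of organic anion transporting polypeptides (Slco1a1, Slco1a4, Slco1b2, Slco2a1 and Slco2b1), 2 members of the Slc22 family (Slc22a7 and Slc22a18) and 2 ATP-driven export pumps (Abcc2 and Abcc3). The mice were MSM/Ms (MSM), an inbred strain derived from Japanese wild mice, and C57BL/6 (B6), a classical laboratory strain. In each strain 1 mouse had received 1.5 µg of MegaFasL, a multimeric form of the ligand of the death receptor Fas, by injection into the peritoneum, and 1 mouse was untreated. Liver and thymus of each mouse gave 1 library each, so the 8 combinations (MSM injected, B6 injected, MSM untreated and B6 untreated, in liver and in thymus) hold 1 library apiece. No engineered allele is named for any mouse, and the labels give neither sex nor the time after injection.

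Hepatocytes clear bilirubin, bile acids, steroid conjugates, hormones and drugs from blood in 2 steps. Carriers of the Slco and Slc22 families in the membrane facing the blood take the compounds up, and after conjugation, pumps of the Abcc family move the products out. Abcc2 exports them into bile, whereas Abcc3 returns them to blood. Several of these genes are targets of the nuclear receptors CAR and PXR, which sense foreign compounds, and in mouse liver Slco1a1 is known as a male-predominant transcript and Slco1a4 as a female-predominant one.

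The genes lie on 6 chromosomes (mm10 positions as in the deposited tables, strands from the GENCODE M21 annotation). Slco1b2 (chr6:141629518-141686635, plus strand), Slco1a4 (chr6:141805440-141856171, minus strand) and Slco1a1 (chr6:141907281-141946962, minus strand) are neighbours. Slco2b1 (chr7:99657804-99711340, minus strand) and Slc22a18 (chr7:143473755-143499332, plus strand) share a chromosome but are far apart. Slco2a1 lies at chr9:103008489-103087849 (plus strand), Abcc3 at chr11:94343295-94392976 (minus strand), Slc22a7 at chr17:46432185-46438477 (minus strand) and Abcc2 at chr19:43782308-43838218 (plus strand).

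How far reads can tell the chromosome 6 neighbours apart bears on their values, so 90 coding bases of each are shown from the GENCODE M21 transcripts. They are coding positions 501 to 590 of Slco1a1 and Slco1a4 and 525 to 614 of Slco1b2, written 5′ to 3′, and capitals mark bases that differ from Slco1a1.
Slco1a1: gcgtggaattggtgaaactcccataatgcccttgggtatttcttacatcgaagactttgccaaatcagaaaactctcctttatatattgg
Slco1a4: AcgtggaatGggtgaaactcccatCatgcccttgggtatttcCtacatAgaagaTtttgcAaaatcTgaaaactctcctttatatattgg
Slco1b2: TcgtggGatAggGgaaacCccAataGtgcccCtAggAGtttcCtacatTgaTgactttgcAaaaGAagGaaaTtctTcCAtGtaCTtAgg
In this window Slco1a4 differed from Slco1a1 at 8 bases and Slco1b2 at 26. Over the whole coding sequence Slco1a1 and Slco1a4 were identical at 87.1% of 2004 aligned bases, with a longest shared run of 132 bases, against 71.1% and 14 bases for Slco1a1 and Slco1b2. Of all stretches of 50 bases in the transcript, 2.6% of Slco1a1 and 2.73% of Slco1a4 also occurred in another Slco1a gene. Sequenced fragments that lie wholly within such stretches cannot be assigned to 1 gene, and the sources used here do not say how they were counted. Slco1a5 and Slco1a6, the other close relatives, were at most 0.476 and 0.468 FPKM in any liver. Slco2b1 shared 8.31% of its stretches with Gm15635 and Gm34280. A match on either strand was counted as shared, and whether strand was used in counting reads was also not given. For Slco2a1 and Abcc2 the shared share was 0.919% and 0.163%, and Slco1b2, Slc22a7, Slc22a18 and Abcc3 shared 0. The shares are over whole GENCODE transcripts. Only 4033 of the 7122 bases of Slco2a1 and 5389 of the 8027 bases of Abcc2 lie within the deposited positions, so their shares need not hold for the reads counted.

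Levels are in FPKM, read fragments relative to a transcript's length and the library's depth, which allows levels of different genes to be set beside each other. By the estimated depth, 1 FPKM on 1 kb stood for 1.45 to 1.66 fragments in the livers and 2.57 to 3.15 in the thymi. Hepatocyte markers, 17 of 18 matched to the tables, summed to 117880 to 158263 FPKM in the livers, with 0 of the 17 at 0. Thymocyte markers summed to 1478 to 2396 FPKM in the thymi. In the livers they summed to 42.2 FPKM in the untreated B6 mouse, against 5.24 to 7.54 FPKM in the other 3, and the part of this in the liver values was not tested. The untreated MSM thymus stood apart, with hepatocyte markers at 3611 FPKM against 58.5 to 257 FPKM in the other thymi and airway secretory markers at 1133 FPKM against 1.07 to 7.01 FPKM. Its adipocyte markers (1159 FPKM against 139 to 200.2 FPKM) and its stellate cell and fibroblast markers (196 FPKM against 56.8 to 64.9 FPKM) were also above those of the other thymi. In the livers, endothelial markers summed to 89.7 (injected) and 171 FPKM (untreated) in MSM, against 204 and 225 FPKM in B6, and Kupffer cell and macrophage markers to 104 and 102 FPKM in MSM, against 258 and 525 FPKM in B6. MSM reads were aligned to a genome built from C57BL/6, so MSM transcripts that diverge from it can lose reads.

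Slco1b2 was the most abundant of the 9 transcripts in every liver. This carrier of bilirubin conjugates and bile acids, the rodent counterpart of the human hepatic SLCO1B genes, averaged 655 ± 173 FPKM over the livers (SD, n = 4 livers of differing strain and treatment, as for each mean in this paragraph). Abcc2, the canalicular pump for bilirubin glucuronides, followed at 167 ± 64.5 FPKM. Slco1a1, a carrier of steroid conjugates and bile acids, averaged 84.5 ± 41.2 FPKM and Abcc3, which exports glucuronides towards the blood, 72.1 ± 16.0 FPKM. The next in order were Slco1a4, a carrier with digoxin among its substrates, at 65.4 ± 16.4 FPKM, and Slc22a18, an imprinted gene whose protein resembles organic cation carriers, at 58.9 ± 15.1 FPKM. Slco2b1, a carrier of steroid sulfates, averaged 32.8 ± 12.1 FPKM. At the low end were Slco2a1, the prostaglandin transporter, at 17.2 ± 4.72 FPKM and Slc22a7, which encodes the organic anion transporter OAT2, at 14.6 ± 9.43 FPKM. Of the 8 neighbouring pairs in this order, only Slco1b2 with Abcc2 and Slco2b1 with Slco2a1 had ranges over the 4 livers that did not overlap. Abcc3 was above Slco1a4 in 2 of 4 livers, so their order is not fixed by these data.

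**Figure D1:**
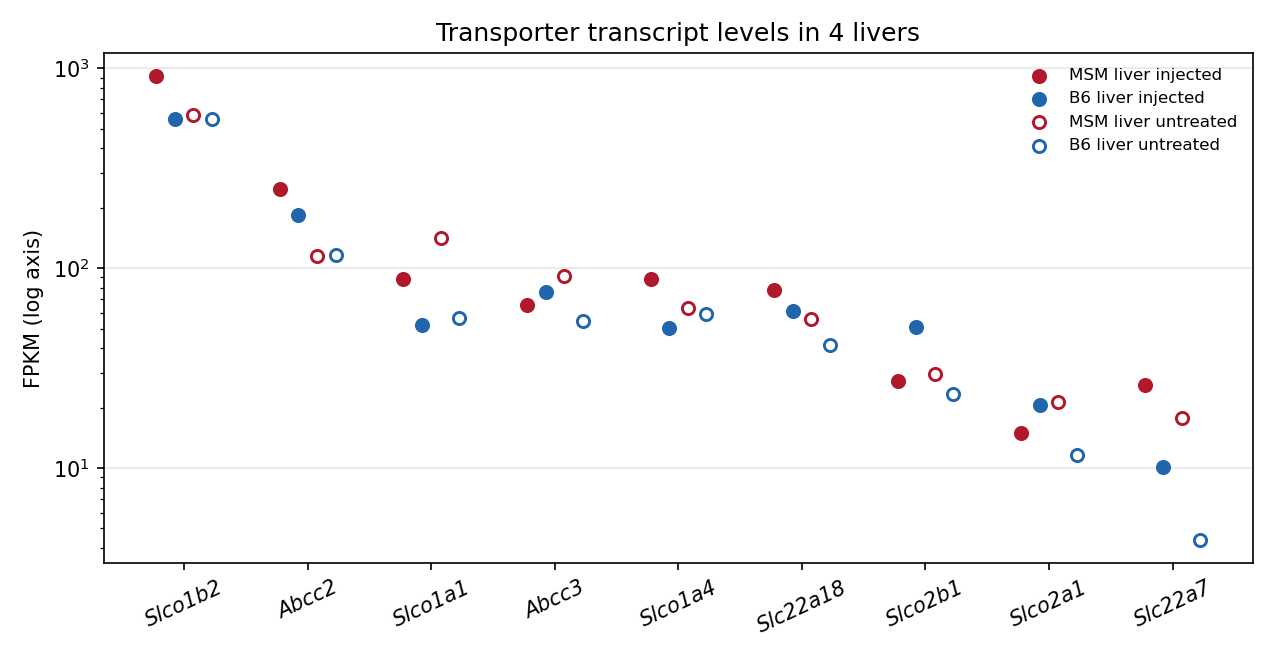
FPKM of the 9 transporter genes in the 4 livers on a log axis, genes ordered by mean level, red for MSM, blue for B6, filled for injected and open for untreated, 1 point per library. Slco1b2 lies between 557 and 914 FPKM, above every other gene, and Slc22a7 has the widest relative spread, from 4.38 to 26.1 FPKM.

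The livers of the 2 strains were set side by side within each treatment, starting with the Slco1 uptake carriers. Slco1a1 stood at 88.0 FPKM in the injected and 141 FPKM in the untreated MSM liver, against 51.9 and 56.7 FPKM in the B6 livers. Both MSM livers were above both B6 livers, and the untreated MSM liver stood highest. The strain difference (MSM minus B6) on the log2(FPKM + 1) scale was 1.03 ± 0.24 (SE, n = 2 mice per strain, 1 injected and 1 untreated), with a limma adjusted p = 0.15 over all genes. It therefore did not pass the threshold of 0.05. The SE measures the variation of that difference between the injected and the untreated pair of mice, after limma's moderation, and says nothing of the spread among like mice, as no combination had a replicate.

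Slco1a4 stood at 88.7 FPKM in the injected and 63.6 FPKM in the untreated MSM liver, against 50.5 and 58.8 FPKM in the B6 livers. Here too the groups did not overlap, but the untreated livers were close, and the difference of 0.46 ± 0.26 had a limma adjusted p of 0.458. Slco1b2 stood at 914 and 588 FPKM in the injected and untreated MSM livers and at 561 and 557 FPKM in the B6 livers. The injected MSM liver was the high one and the other 3 lay within a narrow range (strain difference 0.39 ± 0.23, limma adjusted p = 0.472).

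The ratio of neighbours within a library does not depend on how that library was scaled. Slco1a1 over Slco1a4 was 0.992 in the injected and 2.22 in the untreated MSM liver, against 1.03 and 0.964 in the B6 livers. The untreated MSM liver thus held more Slco1a1 than Slco1a4, while the other 3 held nearly equal levels of both. Slco1b2 over Slco1a4 varied less, with 10.3 and 9.23 in the MSM livers and 11.1 and 9.46 in the B6 livers. Slco1b2 over Slco1a1 was 10.4 and 4.15 in the MSM livers and 10.8 and 9.81 in the B6 livers, so the untreated MSM liver stood apart only in the ratios that contain Slco1a1.

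Slc22a7 had the largest fitted strain difference of the 9. It stood at 26.1 FPKM in the injected and 17.9 FPKM in the untreated MSM liver, against 10.2 and 4.38 FPKM in the B6 livers. The groups did not overlap, and the MSM level was 2.57 times the B6 level in injected mice and 4.09 times in untreated mice. The difference of 1.55 ± 0.28 log2 units had a limma adjusted p = 0.101 and did not pass. Over 13 alternatives the adjusted p ranged from 0.0658 to 0.668 and the difference from 1.02 to 2.07. The low end of these levels rests on few reads: an estimated 75.2 and 56.4 fragments in the MSM livers, against 33.6 and 13.4 in the B6 livers, the last with a 95% Poisson interval of 6.92 to 22.2 fragments, which covers counting error only.

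Slc22a18 stood at 77.9 and 55.7 FPKM in the injected and untreated MSM livers, against 60.8 and 41.2 FPKM in the B6 livers. The MSM liver was above the B6 liver in each treatment, but the untreated MSM liver was below the injected B6 liver, so the strains overlapped (0.39 ± 0.21, limma adjusted p = 0.436). Slco2a1 stood at 14.9 and 21.4 FPKM in the MSM livers and 20.7 and 11.6 FPKM in the B6 livers. Slco2b1 stood at 27.4 and 29.7 FPKM in the MSM livers and 50.6 and 23.6 FPKM in the B6 livers. For both Slco2 genes the MSM liver was the lower one in injected mice and the higher one in untreated mice. Their fitted differences of 0.19 ± 0.38 (Slco2a1, limma adjusted p = 0.848) and -0.27 ± 0.35 (Slco2b1, adjusted p = 0.753) had an SE larger than the value and changed sign when single libraries were left out. Slco2a1 is known from endothelium and Slco2b1 from several cell types. The part of the endothelial and macrophage marker sums given above in these levels was not tested, and in whole tissue fewer cells of a type and less RNA per cell cannot be told apart.

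Of the pumps, Abcc2 stood at 251 FPKM in the injected and 116 FPKM in the untreated MSM liver, against 185 and 117 FPKM in the B6 livers. The untreated livers of both strains were nearly equal, and both injected livers were above them (strain difference 0.21 ± 0.21, limma adjusted p = 0.678). Abcc3 stood at 65.7 and 92.1 FPKM in the MSM livers, against 76.4 and 54.4 FPKM in the B6 livers. The untreated MSM liver was highest and the untreated B6 liver lowest (0.27 ± 0.30, limma adjusted p = 0.715). Abcc2 over Abcc3, the pump into bile over the pump into blood, was 3.81 and 1.26 in the injected and untreated MSM livers, against 2.42 and 2.14 in the B6 livers. The MSM livers thus held both the highest and the lowest ratio.

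**Figure D2:**
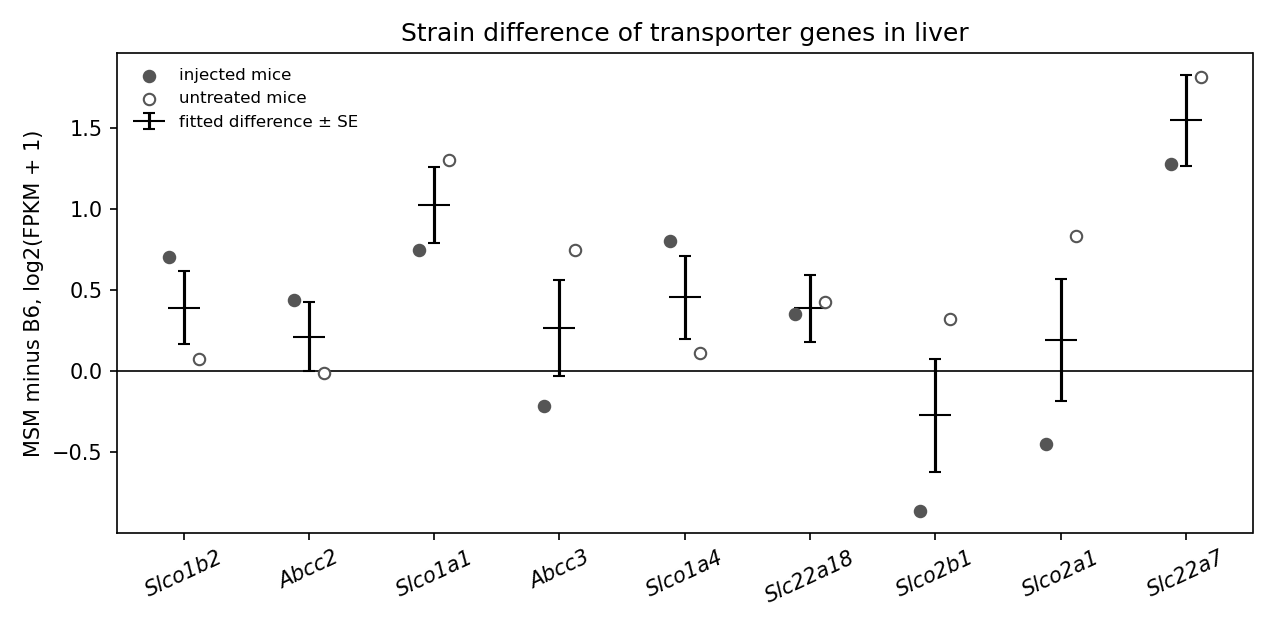
MSM minus B6 in liver on the log2(FPKM + 1) scale for the 9 genes, filled points for injected and open points for untreated mice, the bar for the fitted difference with its SE (n = 2 mice per strain). Slc22a7 and Slco1a1 lie highest at 1.55 and 1.03, and for Abcc2, Abcc3, Slco2a1 and Slco2b1 the points fall on both sides of 0.

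Across the list, 0 of 9 genes passed the limma threshold between the strains in liver, against 1.47% of the 10971 genes tested. At an unadjusted p under 0.05 there were 2 of 9 (Slco1a1 and Slc22a7), against 16.2% of all genes. The fitted difference was above 0 for 8 of 9 genes, with a median of 0.39 against 0.01 over all genes tested. Rescaling the libraries to a common sum moved the median of all genes to -0.16. Without the untreated B6 liver, which held more thymocyte transcripts, the differences were 1.09 for Slco1a1, 0.56 for Slco1a4, 0.38 for Slco1b2, 1.02 for Slc22a7, 0.11 for Slc22a18 and 0.03 for Abcc3, and below 0 for Abcc2 (-0.12), Slco2a1 (-0.20) and Slco2b1 (-0.81), with limma adjusted p from 0.66 to 0.99. In 4 of 9 genes (Slco1a1, Slco1a4, Slco1b2 and Slc22a7) both MSM livers were above both B6 livers, against 20.5% of all genes. A difference above 0 in both treatments was seen for 5 of 9, the same 4 and Slc22a18, against 31% of all genes.

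The other genes of transport and its control give the setting in which these values stood. Of 13 other uptake carriers tested in liver, 0 passed in either direction, with a median strain difference of -0.13. At an unadjusted p under 0.05 there was 1 of 13, against 16.2% of all genes. The largest difference among these carriers was that of Slc22a27, a relative of Slc22a7. It stood at 5.55 and 16.3 FPKM in the MSM livers against 35.4 and 47.2 FPKM in the B6 livers (-1.97, limma adjusted p = 0.082). Slc10a1, the sodium-coupled bile acid carrier, stood at 524 and 276 FPKM in the MSM livers, against 529 and 353 FPKM in the B6 livers. Of 14 other efflux transporters, 0 passed, with a median of -0.02 and 3 at an unadjusted p under 0.05, against 16.2% of all genes. Abcg2, the breast cancer resistance protein pump, stood at 36.7 and 43.2 FPKM in the MSM livers against 15.5 and 19.4 FPKM in the B6 livers (1.15 ± 0.23, limma adjusted p = 0.119). Of the other Slco genes, 10 were matched and only Slco3a1 reached the level tested, with a difference of 1.10 (adjusted p = 0.286).

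A list of 22 genes held nuclear receptors and transcription factors that act on transporter genes, their regulators, and Por, the electron donor of the P450 enzymes. Of these 22, 0 passed and the median was 0.02, and 4 had an unadjusted p under 0.05, against 16.2% of all genes. Bcl6, a repressor linked to sex-dependent liver expression, came nearest, at 14.0 and 21.4 FPKM in the MSM livers against 2.70 and 2.57 FPKM in the B6 livers (2.33, limma adjusted p = 0.0523). The receptor genes Nr1i2 (PXR) and Nr1i3 (CAR) differed by 0.40 (adjusted p = 0.477) and -0.03 (adjusted p = 0.967). Of 18 enzyme genes that are targets of CAR and PXR, 5 were lower in MSM (Cyp2c37, Cyp2c50, Cyp3a13, Gstm3 and Ces2a) and 0 higher, against 0.957% and 0.51% of all genes, with a median of -0.61. At an unadjusted p under 0.05 there were 12 of 18, against 16.2% of all genes, and these went both ways. Higher in MSM among them were Cyp3a11 (2.57), Gadd45b (2.31), Gstp1 (1.14) and Cyp2a5 (1.02), and the rest were lower. Of the 18 genes, 7 were above 0. The list was chosen with earlier results of these data known, so these counts describe it and test nothing beyond it. The P450 gene Cyp2c37 stood at 112 and 171 FPKM in the MSM livers, against 639 and 701 FPKM in the B6 livers (-2.26 ± 0.21, limma adjusted p = 0.0238). The esterase gene Ces2a stood at 9.94 and 22.6 FPKM in the MSM livers, against 111 and 129 FPKM in the B6 livers (-2.91 ± 0.29, adjusted p = 0.0308). The P450 gene Cyp3a11 went the other way without passing, at 7272 and 7332 FPKM in the MSM livers against 654 and 2317 FPKM in the B6 livers (2.57, adjusted p = 0.0921). Of 12 targets of the oxidative stress factor NRF2, 1 was lower in MSM and 0 higher, against 0.957% and 0.51% of all genes. The lower one was Gstm2 (-2.73 ± 0.35, limma adjusted p = 0.0455). Of the 12, 4 had an unadjusted p under 0.05, against 16.2% of all genes.

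Many sex-dependent liver genes differed between the strains. These lists were chosen with earlier results of these data known, so the counts below describe the lists and test nothing beyond them. Of 10 male-predominant genes, 7 were higher in MSM and 0 lower in limma, against 0.51% of all genes called higher. Of 14 female-predominant genes, 8 were lower and 0 higher, against 0.957% of all genes called lower. The medians were 3.86 and -4.50, and 9 of 10 and 3 of 14 genes were above 0. Of the male-predominant genes, Elovl3 was below the level tested and listed at 0 in both MSM livers but not in the B6 livers. Of those tested, Cyp2u1 (-1.48, limma adjusted p = 0.247) went the other way. Of the female-predominant genes, Sult3a1 (3.08, adjusted p = 0.0664), Cyp3a44 (0.88) and Fmo2 (0.35) did so. Slco1a4, known as female-predominant, was also above 0 (0.46). Xist, the transcript of the inactive X chromosome, stood at 105 and 87.0 FPKM in the MSM livers and at 131 and 73.0 FPKM in the B6 livers, and the Y-linked genes Ddx3y, Kdm5d, Eif2s3y and Uty were listed at 0 in all 8 libraries. By these transcripts the mice of both strains had the pattern of females, though the labels give no sex. The part that the strain differences of the sex-dependent genes had in the values of Slco1a1 and Slco1a4 was not tested.

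Injected livers were next set against untreated livers of the same strain. Treatment coincides with the separately normalized tables and with 1 mouse each, so libraries were centred by their median ratio and no test was made. The B6 values rest on the untreated B6 liver named above and cannot be given without it. Abcc2 was 2.17 times as high in the injected as in the untreated MSM liver and 1.59 times as high in the B6 liver, which is 1.07 and 0.60 in centred log2(FPKM + 1). Slc22a18 differed by 0.44 in MSM and 0.49 in B6, an almost equal amount. Slc22a7 differed by 0.48 in MSM and 1.00 in B6. These 3 genes were higher in the injected liver of both strains, and for Abcc2 and Slc22a18 both injected livers were above both untreated livers, which is 2 of 9 genes against 18.9% of all genes tested.

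The remaining genes did not share a direction between the strains, apart from Slco1a1. It was lower in the injected liver by 0.72 in MSM and by 0.19 in B6. Slco1a4 differed by 0.43 in MSM and -0.28 in B6, and Slco1b2 by 0.59 and -0.05, so both stood higher in the injected MSM liver but not in the injected B6 liver, where the small Slco1b2 value had the other sign under 2 of 6 alternatives. Slco2a1 differed by -0.53 in MSM and 0.73 in B6, Slco2b1 by -0.15 and 1.01, and Abcc3 by -0.52 and 0.42, the opposite arrangement. Whether the strains differed in these changes was not tested. A change of at least 2-fold in the same direction in both strains was seen for 0 of 9 genes, against 2.9% of the 10975 genes compared. In MSM alone 1 of 9 was past 2-fold (Abcc2, against 13.8% of all genes) and in B6 alone 1 of 9 (Slco2b1, against 12.8%). These single calls depend on the scale. Slc22a7 in B6 had the larger ratio of FPKM as deposited, 2.32 against 2.15 for Slco2b1, but was just under 2-fold after 1 was added and the libraries were centred. It was past 2-fold without centring (1.05), rescaled to a common sum (1.14) or with 0.1 added (1.13), and at 0.66 with 5 added. Abcc2 in MSM was at 0.95 after rescaling and Slco2b1 in B6 at 0.91 with 5 added, both under 2-fold. The median over the 9 was 0.43 in MSM and 0.49 in B6, with no median over all genes set beside it. Below 0 were Slco1a1, Slco2a1, Slco2b1 and Abcc3 in MSM, and Slco1a1, Slco1a4 and Slco1b2 in B6.

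**Figure D3:**
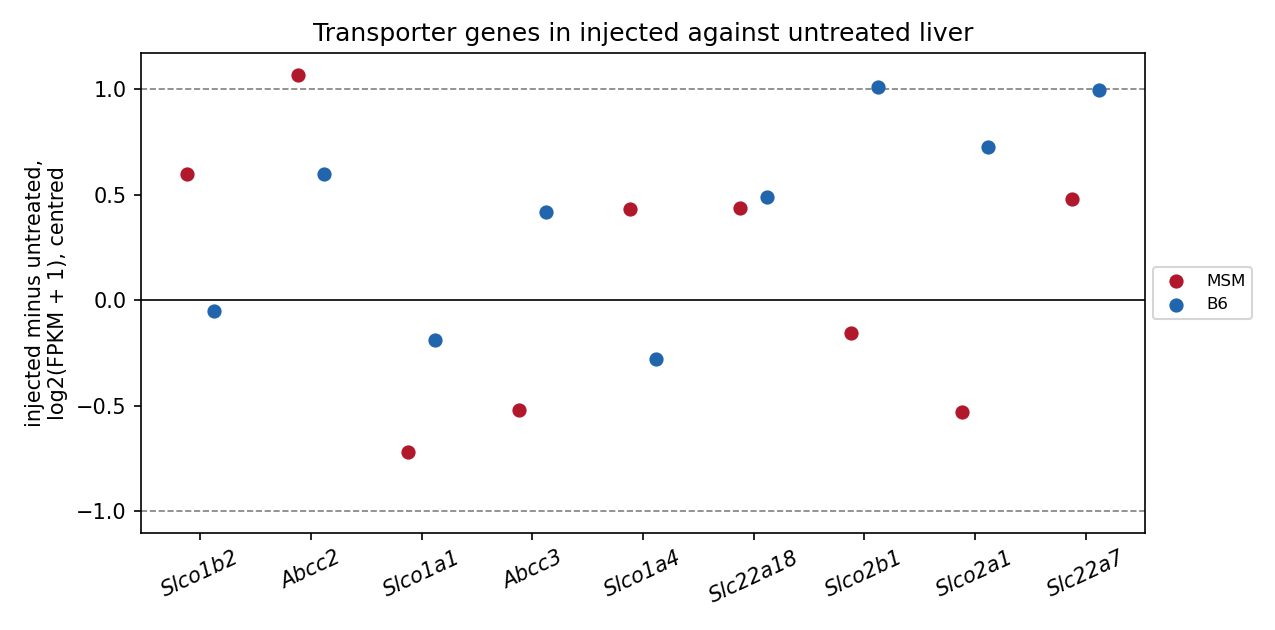
Injected minus untreated liver in centred log2(FPKM + 1) for the 9 genes, red for MSM and blue for B6, 1 mouse per treatment and strain, dashed lines at 2-fold. Abcc2, Slc22a18 and Slc22a7 lie above 0 in both strains, and Slco2a1, Slco2b1 and Abcc3 lie below 0 in MSM and above 0 in B6.

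In the same comparison 1 of 14 other efflux transporters, the sterol transporter gene Abcg8, was at least 2-fold higher in both strains, and 1 of 13 other uptake carriers, the lactate carrier gene Slc16a1, was at least 2-fold lower in both. Of all genes compared, 1.63% were that much higher in both and 1.27% that much lower. Of the list of receptors, factors and Por, 3 of 22 were at least 2-fold higher in both (Ppara, Cux2 and Por). Por stood at 306 FPKM injected against 55.3 FPKM untreated in MSM and at 224 FPKM injected against 41.3 FPKM untreated in B6. Ppara, the fatty acid sensing receptor, differed by 1.60 in MSM and 1.12 in B6. Of the CAR and PXR target enzymes, 2 of 18 were at least 2-fold higher in both (Alas1 and Cyp2a5), and of the NRF2 targets 0 of 12 moved so in either direction. The CAR target gene Cyp2b10 stood at 7.24 FPKM injected against 5.88 FPKM untreated in MSM and at 8.65 FPKM injected against 30.6 FPKM untreated in B6.

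By profile over the 4 livers, the genes most like each of the 4 members with the widest range were picked by the root mean square difference of log2(FPKM + 1) after each gene's mean was subtracted, among 6571 genes. Slco1a1 was most like Fmo4, a flavin monooxygenase gene (0.06), and Cdk2ap2 (0.08). Slc22a7 was most like Cldn14, a tight junction gene (0.11), and Fmo5, another flavin monooxygenase gene (0.15). Fmo5 stood at 367 and 199 FPKM in the MSM livers, against 118 and 65.3 FPKM in the B6 livers. This is the order of the livers seen for Slc22a7, which was nearly set by picking Fmo5 for its profile over these livers. Abcc2 was most like the chromatin reader gene Brd2 (0.03) and the nuclear envelope gene Sun2 (0.03), and Slco2b1 was most like Atpaf1 (0.05), an assembly factor of the mitochondrial ATP synthase, and Pgam5 (0.07). With 4 libraries and so many candidates, profiles this close describe these libraries only.

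All 9 genes were higher in liver than in thymus of the same mice. The difference in log2(FPKM + 1) was largest for Slco1b2 (7.72 ± 0.67, SE, n = 4 mice, as for each value in this paragraph) and Abcc2 (6.61 ± 0.47). It was 5.87 ± 0.17 for Slco1a1, 5.68 ± 0.26 for Slco1a4, 5.58 ± 0.19 for Slc22a18 and 4.51 ± 0.22 for Abcc3. The smallest differences were those of Slco2b1 (2.60 ± 0.23), Slco2a1 (2.44 ± 0.36) and Slc22a7 (2.17 ± 0.19). In limma with mouse as a block, 9 of 9 passed, with adjusted p from 6.63e-05 to 0.00172, against 28.6% of the 12880 genes tested that were called higher in liver and 60.7% called either way. Slco1a1, Slco1a4, Slc22a18 and Abcc2 averaged under 1 FPKM in thymus (0.433, 0.338, 0.253 and 0.971 FPKM). They were kept in this test through their liver level alone, so a call higher in liver was nearly set in advance for them. Of all calls 47.1% were higher in liver, and 21.1% with every library scaled to the same total, where the median of all genes was -1.05 and all 9 were still called higher. The median over the 9 was 5.58, against -0.13 over all genes as deposited. The size depends on the value added before the logarithm, as thymus levels are near 0: for Slco1a1 it was 3.94 with 5 added and 8.02 with 0.1 added. Of the 2 other Slco genes tested, both went the other way, Slco3a1 by -1.85 (adjusted p = 0.00441) and Slco5a1 by -1.35 (adjusted p = 0.00521).

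The 9 genes differed widely in their thymus levels. Slco2b1 stood at 3.84 and 5.08 FPKM in the injected and untreated MSM thymi and at 4.19 and 4.32 FPKM in the B6 thymi, nearly the same in all 4. Abcc3 stood at 1.74 and 2.73 FPKM in the MSM thymi and at 1.54 and 2.84 FPKM in the B6 thymi, the lower value in the injected mouse of each strain. Slc22a7 stood at 4.44 and 2.55 FPKM in the MSM thymi, against 1.64 and 0.482 FPKM in the B6 thymi. Both MSM thymi were above both B6 thymi, and the 4 mice stood in the same order in thymus as in liver, lowest in the untreated B6 mouse and highest in the injected MSM mouse. As a share of the liver of the same mouse, thymus Slc22a7 was 17.0% and 14.2% in MSM, against 16.2% and 11.0% in B6. The strain difference in thymus was 1.15 ± 0.39 (n = 2 mice per strain), with limma adjusted p = 0.313, on an estimated 25.2 and 13.0 fragments in MSM and 10.3 and 3.02 fragments in B6. Slco2a1 stood at 0.335 and 2.40 FPKM in the MSM thymi, against 5.03 and 3.10 FPKM in the B6 thymi (-1.22 ± 0.53, adjusted p = 0.407), lowest in the injected MSM thymus.

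The other 5 genes were near 0 in most thymi and highest, for 4 of them, in the untreated MSM thymus. Slco1b2 stood at 1.66 and 18.3 FPKM in the injected and untreated MSM thymi and at 0.383 and 0.187 FPKM in the B6 thymi. Abcc2 stood at 0.309 and 3.35 FPKM in the MSM thymi, and was at 0.229 FPKM in the injected B6 thymus and listed at 0 in the untreated one. Slco1a1 stood at 0.511 and 1.22 FPKM and Slco1a4 at 0.177 and 1.17 FPKM in the MSM thymi, and both were listed at 0 in the B6 thymi. Slc22a18 stood at 0.739 and 0.272 FPKM in the MSM thymi, was listed at 0 in the B6 thymi, and was not highest in the untreated mouse.

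That library also held the plasma protein genes of the hepatocyte. Alb stood at 139 and 1773 FPKM in the injected and untreated MSM thymi, against 49.8 and 24.1 FPKM in the B6 thymi. As a share of the liver of the same mouse, the untreated MSM thymus held Alb at 2.38%, Apoa2 at 2.85%, Fabp1 at 3.67% and Ttr at 5.11%. It held Slco1b2 at 3.12%, Abcc2 at 2.89%, Slco1a4 at 1.84% and Slco1a1 at 0.864%. In the other 3 thymi these 8 shares were at most 0.581%. Slco2b1 (8.27% to 18.3%), Slc22a7 (11.0% to 17.0%) and Slco2a1 (2.24% to 26.8%) did not have their highest share in the untreated MSM thymus, nor did Abcc3 (2.02% to 5.22%) or Slc22a18 (at most 0.949%). The part of hepatocyte transcripts in the thymus levels was not tested. Without the untreated MSM mouse, the difference between liver and thymus was 8.66 for Slco1b2 (limma adjusted p = 1.24e-05) and 7.23 for Abcc2 (adjusted p = 1.45e-05).

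**Figure D4:**
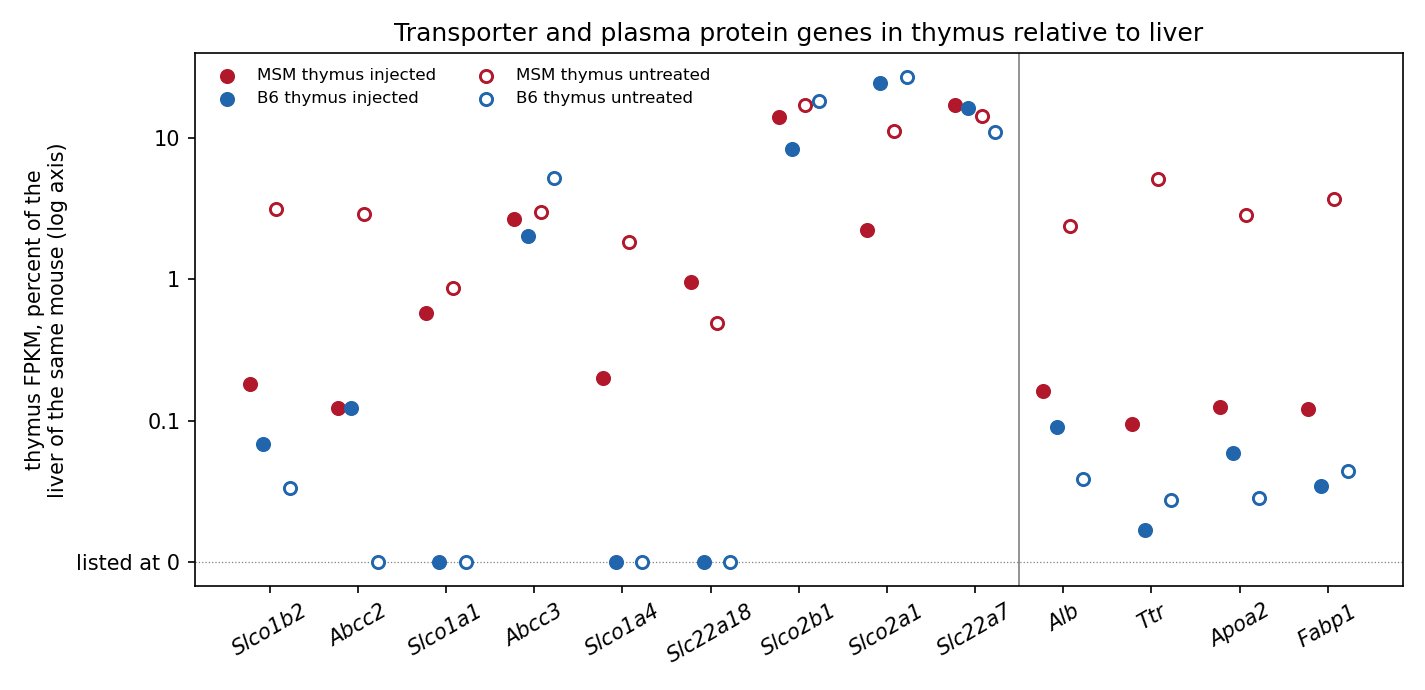
Thymus FPKM as a percent of the liver FPKM of the same mouse on a log axis, for the 9 transporter genes and, right of the line, 4 genes of hepatocyte secretion and lipid binding, with values listed at 0 on the dotted line. The open red points of the untreated MSM mouse lie at 2.38% to 5.11% for the 4 hepatocyte genes and at 3.12% for Slco1b2, while Slco2b1 and Slc22a7 lie between 8.27% and 18.3% in all 4 mice.

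Between the strains in thymus, 5 of the 9 genes reached a mean of 1 FPKM and were tested, and 0 of 5 passed, against 0.973% of 11610 genes. At an unadjusted p under 0.05 there were 2 of 5 (Slco1b2 and Slc22a7), against 13% of all genes. The Slco1b2 mean of 5.14 FPKM came mostly from the untreated MSM thymus (18.3 FPKM, against 0.187 to 1.66 FPKM in the other thymi). Its place in the test and in this count therefore rests on that library. Slco1b2 differed by 2.48 ± 0.73 (limma adjusted p = 0.24). It passed (3.91, adjusted p = 0.0436) when the injected MSM thymus was left out and the untreated one, which held the hepatocyte transcripts, stood for MSM alone. Whether the strain difference itself differed between liver and thymus was tested on the liver minus thymus difference of each mouse: 0 of 9 passed in limma, against 0.365% of 12880 genes, and 1 of 9 had an unadjusted p under 0.05 (Slco2a1, 1.41 ± 0.40, adjusted p = 0.267), against 12.6% of all genes. Injected against untreated thymi differed by at least 2-fold in the same direction in both strains for 0 of the 5, against 0.688% of 11623 genes.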

How the data were processed

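RNA was extracted with TriPure, and libraries of polyadenylated RNA were made with a TruSeq kit, per the labels' protocols. The submitters' processing notes name TopHat, Cuffdiff 2.2.1 and the mm10 build. The authors deposited FPKM in 1 table for untreated and 1 for injected mice, each normalized separately. For the annotation and run settings: not given in the sources used here. The tables' intervals had a lower bound of 0 for 36 of 36 liver values of the 9 genes and were not used.

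Levels were compared as log2(FPKM + 1) with limma 3.58.1 (mean trend, R 4.3.3), two-sided, with Benjamini-Hochberg adjustment over all genes that averaged 1 FPKM or more (in either tissue, where both were used). Strain fits held treatment as a block and left 1 residual degree of freedom. The fit of liver against thymus held mouse as a block, since both tissues came from the same mouse. The code was tested on simulated data. Fragments were estimated from the spacing of low FPKM values of 1987 genes: 55.2% to 60.4% of values came out whole within 0.1, against 20% by chance. Intervals on them are exact Poisson intervals at 95%.

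The 9 genes, the other lists and the markers were chosen with earlier results of these data known. Besides the 9, genes past the threshold or among the 4 largest liver strain differences of a list could be named, as could the 2 nearest profiles of a member spanning at least 1 log2 unit. Slc10a1, Nr1i2, Nr1i3, Cyp2b10, Slco5a1, Slco1a5, Slco1a6, the genes past 2-fold after injection and the 4 hepatocyte genes set beside the thymus levels were named after their values were seen. Cyp2u1, Elovl3, Sult3a1, Cyp3a44, Fmo2 and Gstp1 were named then too. Slc51a and Slc51b, Tf and Adgre1 (present as Emr1) had no match.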

Additional observations from a re-analysis of the deposited data

Results flagged for a closer look

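Slco2a1, the prostaglandin transporter gene, differed in opposite directions between injected and untreated livers of the 2 strains. The injected minus untreated difference in MSM less that in B6 was -1.26 in centred log2(FPKM + 1), made up of -0.53 in MSM and 0.73 in B6. It is listed here because the strains went opposite ways by at least 0.5 each. In MSM it was -0.49 without centring and -0.44 with 5 added, both short of that size, and the signs held under each of the 6 alternatives. The difference was not tested, and each value rests on 1 mouse per treatment. Endothelial markers summed to 89.7 FPKM in the injected and 171 FPKM in the untreated MSM liver, and to 204 FPKM in the injected and 225 FPKM in the untreated B6 liver. Their part in the Slco2a1 levels was not tested.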

How the results depend on the processing

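All 9 genes, among them those kept in the main test through liver alone, stayed higher in liver past the threshold under each of 13 alternatives. With a filter of 5 FPKM, only Slco1b2 reached that mean in thymus (5.14 FPKM). The other members were kept there through liver alone, so a call higher in liver was nearly set in advance for them. Without the replicate block that pairs the tissues of a mouse, 7861 genes passed in place of 7821, again with all 9. Rescaling to a common sum called 9872 genes, of which 21.1% were higher in liver, against 47.1% as deposited. In the strain and interaction tests of the 9, the only member that passed under any alternative was Slco1b2 in thymus (3.91, without the injected MSM thymus).

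Counts over all genes moved more. In the liver strain test 161 genes passed, 336 after rescaling, 37 without trend and 0 to 0 with 1 library left out (821 to 1229 at an unadjusted p under 0.05 in limma). In thymus 113 passed, 300 with 0.1 added, 62 without a filter, 184 with a filter of 5 FPKM, 54 when centred, 45 rescaled, 44 without trend, 274 with robust moderation and 10 to 301 with 1 library left out. For the strain by tissue difference 47 passed, 5 with 0.1 added, 132 with 5 added, 15 without a filter, 15 with a filter of 5 FPKM, 27 centred, 8 rescaled, 26 without trend, 30 robust and 0 to 51 with 1 mouse left out. After injection 318 liver genes were past 2-fold in both strains, 554 with 0.1 added, 110 with 5 added and 197 with a filter of 5 FPKM. In thymus 80 were, 297 rescaled, 235 with 0.1 added, 25 with 5 added and 39 with a filter of 5 FPKM.

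Signs turned for members near 0, and the cause was not tested. With 1 liver library left out, the strain difference ranged from -0.20 to 0.59 for Slco2a1 (below 0 without either untreated library), from -0.81 to 0.26 for Slco2b1 (above 0 without the injected B6 library) and from -0.34 to 0.77 for Abcc2 (below 0 without the untreated B6 or the injected MSM library). With 1 thymus library left out it ranged from -0.12 to 0.21 for Slco2b1 and from -0.26 to 0.33 for Abcc3, and after rescaling it was -0.0082 and -0.0078. In the strain by tissue difference, Slco1a1 was -2.13 and Slc22a7 -0.11 with 0.1 added, and -0.94 and -0.076 rescaled. Slco1a4 was 0.25 and Slc22a18 0.23 with 5 added. Without the untreated MSM mouse Slco1a4 was 0.46 and Abcc2 0.53, without the injected B6 mouse Slco2b1 was 0.24 and Slc22a18 0.091, and without the untreated B6 mouse Abcc3 was -0.30.

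Fits with 1 library left out used strain alone and assume that a lone library varies like the others. The tables hold no counts, so precision at low levels rests on estimated fragments.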
